A study of Mus musculus with 12 samples.

Results

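LiPS-45 and LiPS-47 are mouse induced pluripotent stem (iPS) cell lines that the labels place on opposite sides of tetraploid complementation competence: LiPS-45 has it and LiPS-47 does not. The comparison takes the 3 arrays titled LiPS-45 against the 3 titled LiPS-47, which are 6 of the 12 arrays of the series. Per the labels, all lines are of the C57BL/6J strain, were reprogrammed from mouse embryonic fibroblasts by 3 factors, were grown in medium for embryonic stem cells and carry no other stated allele or treatment. The factors, the passage and any feeder layer are not named in the labels. LiPS-57, also with competence, and LiPS-50, also without, make up the other 6 arrays and are used here to estimate the spread and to show on which side of a difference a further line lies. The 3 arrays of a line are described as biological repeats, so the p-values below measure only how cultures within a line vary. Competence is a property of a line, and here 1 line stands against 1 line.

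Tetraploid complementation is the most stringent developmental test of a pluripotent cell: the cells are combined with an embryo made tetraploid, whose own cells contribute mainly to the extraembryonic tissues, so the fetus has to come from the tested cells. Pluripotency itself rests on a network around Pou5f1, Sox2 and Nanog. Among the loci followed most closely in mouse iPS cells is the imprinted Dlk1-Dio3 domain on chromosome 12, whose maternal chromosome produces the long noncoding RNAs Meg3 and Rian and a large series of microRNAs, and whose paternal chromosome expresses the protein-coding genes Dlk1, Rtl1 and Dio3. Silencing of the maternal RNAs has been used as a mark of iPS cells with restricted potential.

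The values are probe set intensities from Affymetrix whole-transcript arrays, given below as log2(intensity + 1), so that a difference of 1 is about 2-fold. Over all tested probe sets, pairs of LiPS-45 arrays correlated at 0.997, pairs of LiPS-47 arrays at 0.996 to 0.997, and pairs across the lines at 0.995 to 0.997. Both lines expressed the 10 defining markers of pluripotent stem cells. Their log2 values, summed per array, were 104.3 to 105.1 in LiPS-45 and 104.2 to 104.7 in LiPS-47. The 10 defining fibroblast markers, which include Col1a1 at up to 11.3 in LiPS-45, summed to 83.0 to 85.7 in LiPS-45 and to 79.7 to 83.7 in LiPS-47, ranges that overlap. The sums of the 4 blood markers, 2 of them above the 40th percentile of all probe sets (22.1 to 22.3 in LiPS-45 and 21.1 to 21.9 in LiPS-47) and of the 3 male germ line markers, 2 of them above it (17.8 to 18.1 and 17.4 to 17.7), did not overlap; the part of these cell types in the differences below was not tested. In such bulk RNA, fewer cells of a type and less RNA per cell cannot be told apart. Arrays carry no read depth, and their number limits the precision.

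Few genes separated the lines. With limma, 18 of 28939 probe sets (0.0622%) passed an adjusted p of 0.05, of which 12 were higher and 6 lower in LiPS-45. Of these, 13 probe sets name 1 gene each: Usp26, Hspa8, Plet1, Pop4, Atf7ip, Hspa4, Klf12, Eif2s3y, Cd59a, Pdia4, Mid1, Mir382 and Nefm. In all 18 the 3 LiPS-45 arrays lay apart from the 3 LiPS-47 arrays, a separation that 6.57% of all probe sets showed upward and 6.99% downward. The changes ranged from 1.26-fold to 2.63-fold, with 2 probe sets at least 2-fold higher and 1 at least 2-fold lower in LiPS-45. Without an adjustment, 2585 probe sets (8.93%) had a p under 0.05. The median difference over 19938 genes was -0.0071, and 47.5% of the genes had a higher mean in LiPS-45. When 1 array was left out, the number of probe sets that passed fell to 6, 7 or 8 without LiPS-45 replicate 3, 1 or 2, and to 8 or 11 without LiPS-47 replicate 2 or 1. It rose to 44 without LiPS-47 replicate 3, but those 44 held only 22 distinct sets of values, since many unnamed probe sets carry identical values. It was 11 without LiPS-57 replicate 3. With LiPS-45 and LiPS-47 fitted alone, 3 probe sets passed.

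**Figure D1:**
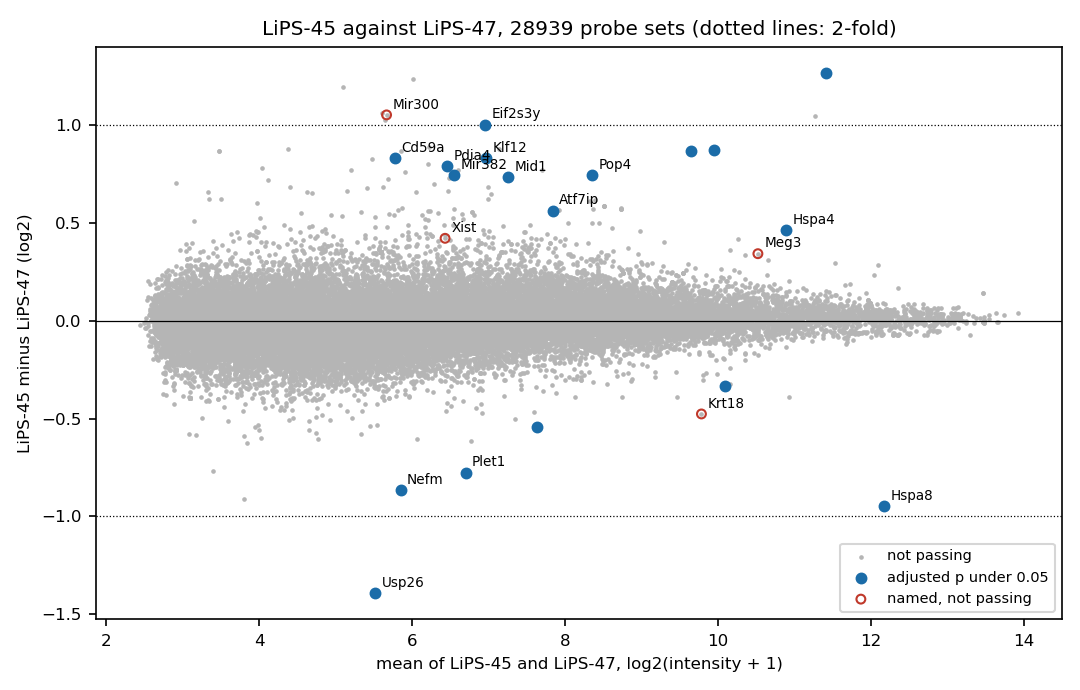
Difference between LiPS-45 and LiPS-47 (log2, vertical axis) against the mean of both lines, log2(intensity + 1) (horizontal axis), for 28939 probe sets. Blue points are the 18 probe sets with an adjusted p under 0.05, and dotted lines mark 2-fold. Red circles are Mir300, Krt18, Meg3 and Xist, which did not pass. Usp26 lies lowest at -1.39 and most probe sets lie close to 0.

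The widest gap of a named gene was that of Usp26, an X-linked ubiquitin-specific protease known mainly from the testis. The LiPS-45 arrays read 4.77, 4.81 and 4.90 and the LiPS-47 arrays 6.31, 6.16 and 6.18. All 3 LiPS-45 values were low, and the lines did not overlap. Usp26 was 2.63-fold lower in LiPS-45 (log2 difference of -1.39 with an SE of 0.0674 and an adjusted p of 1.27e-06). It kept the call without any 1 array. The LiPS-45 values lay below 5.21, the level under which the dimmest 40% of probe sets fall, and with a pseudocount of 16 in place of 1 the difference was -1.04. LiPS-57, at 5.80 ± 0.0125 (SD, n = 3), lay between both lines, above LiPS-45 by 0.98 (adjusted p = 3.12e-05) and below LiPS-47 by 0.42 (adjusted p = 0.0353). LiPS-50 was highest at 7.69 ± 0.0910. It stood above LiPS-47 by 1.47 (adjusted p = 6.07e-08), so neighbouring lines in the order LiPS-45, LiPS-57, LiPS-47 and LiPS-50 all differed. In the other comparisons of the same fit, 77 probe sets (0.266%) passed between LiPS-45 and LiPS-57 and 46 (0.159%) between LiPS-57 and LiPS-47. Against LiPS-50, 4771 (16.5%) passed for LiPS-45 and 4568 (15.8%) for LiPS-47. The comparisons share arrays, so their values are set side by side only.

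Other members of the ubiquitin-specific protease family, which remove ubiquitin from proteins, are listed with it. Of 48 measured members, 1 fell, which was Usp26, and 0 rose, and the median difference was 0.013. Usp40 had a difference of 0.20 (unadjusted p = 0.012) and Usp17lc, a gene also listed among those of the 2-cell stage, one of -0.36 (unadjusted p = 0.00466); neither passed. Near Usp26 on the X chromosome, its next measured neighbours Hs6st2 and 1700080O16Rik differed by 0.057 and 0.097.

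Hspa8, the constitutive cytosolic Hsp70, is represented by 3 probe sets. One of them read 11.72, 11.55 and 11.82 in LiPS-45 and 12.63, 12.60 and 12.72 in LiPS-47, a difference of -0.95 (SE 0.0957, adjusted p = 0.00368). On that probe set LiPS-57 was as high as LiPS-47 (12.69 ± 0.0924) and LiPS-50 as low as LiPS-45 (11.54 ± 0.176). The other 2 probe sets of Hspa8 averaged 12.85 and 12.83 in LiPS-45 and 12.85 and 12.81 in LiPS-47, with differences of -0.0016 and 0.018 (adjusted p = 0.997 and 0.949). The low signal in LiPS-45 was thus seen on 1 of 3 probe sets. Near-identical copies of Hspa8 exist as pseudogenes, and which copies each probe set reads was not tested.

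Hspa4, an Hsp110-type partner that recharges Hsp70 with nucleotide, has 1 probe set. Its values were 11.14, 11.07 and 11.17 in LiPS-45 and 10.73, 10.59 and 10.66 in LiPS-47. LiPS-47 was lowest, with LiPS-57 at 11.08 ± 0.0435 and LiPS-50 in between at 10.92 ± 0.0140. LiPS-45 lay above LiPS-50 by 0.20 (adjusted p = 0.0317), and LiPS-47 differed from LiPS-50 by -0.26 (adjusted p = 0.00805). The difference between LiPS-45 and LiPS-47 was 0.47 (SE 0.0579, adjusted p = 0.0112), and between LiPS-57 and LiPS-47 it was 0.42 (adjusted p = 0.0128). With LiPS-45 and LiPS-47 fitted alone the adjusted p of Hspa4 was 0.204, and 9 of the 12 fits without 1 array kept its call.

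Pdia4, a protein disulfide isomerase of the endoplasmic reticulum, has 2 probe sets. The dimmer one read 6.95, 6.73 and 6.89 in LiPS-45 and 5.86, 6.18 and 6.16 in LiPS-47, a difference of 0.79 (SE 0.114, adjusted p = 0.0350). LiPS-57 (5.99 ± 0.196) and LiPS-50 (6.29 ± 0.119) were as low as LiPS-47. Of the 12 fits without 1 array, 5 kept the call for Pdia4. The brighter probe set averaged 10.64 and 10.65 in LiPS-45 and LiPS-47 and differed by -0.0072. Among 19 measured heat shock and immediate early genes, 0 passed, and 3 were lower at an unadjusted p under 0.05 against 5.05% of all genes: Jun by -0.30, Fosb by -0.26 and Atf3 by -0.21. These are transcription factors that growth signals induce quickly, and 0 of the list were higher at that p. The list spans -0.30 to 0.18, with each gene represented by its brightest probe set. The called probe sets of Hspa8 and Pdia4 are not the brightest of their genes and are therefore not counted in it. Hspa4, which was called, is not a member of the list.

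**Figure D2:**
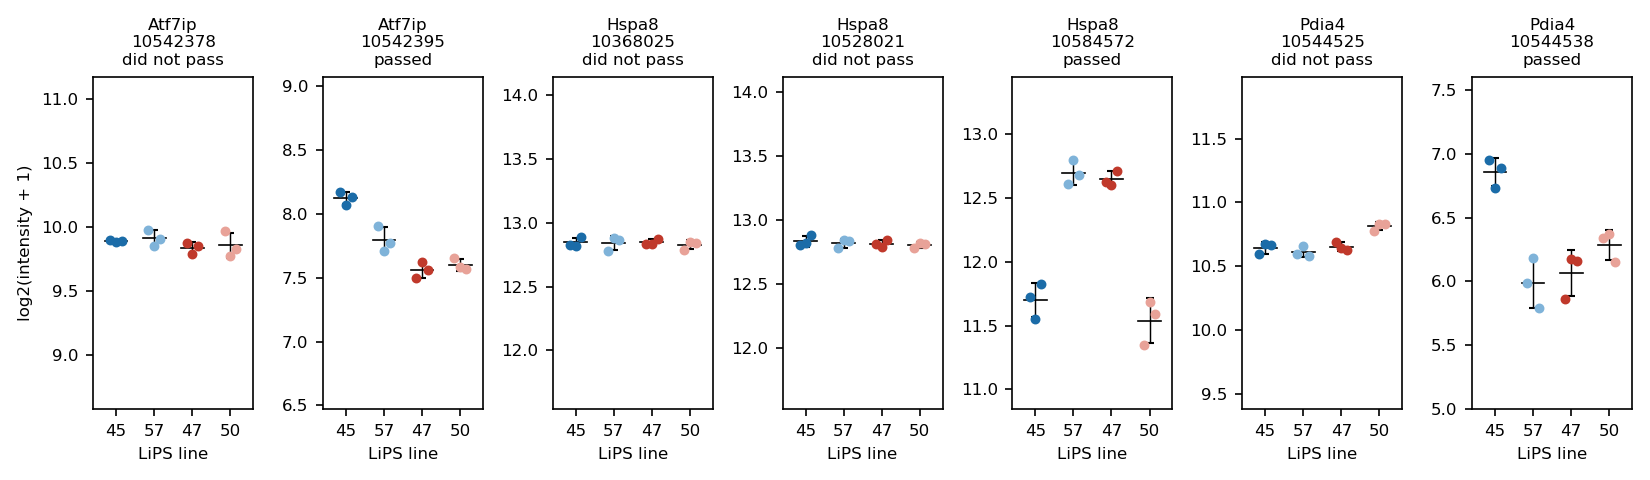
All probe sets of Atf7ip, Hspa8 and Pdia4 in the 12 arrays, as log2(intensity + 1), with points for arrays and bars for the mean ± SD of 3; every panel spans the same height. In each gene 1 probe set differed between LiPS-45 and LiPS-47 while the other or others had differences of 0.049, -0.0016, 0.018 and -0.0072.

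In the Dlk1-Dio3 domain the maternally expressed RNAs were present in both lines, and 27 of 30 microRNA genes of its main cluster had a higher mean in LiPS-45. Mir382 was the member that passed. Its probe set read 6.93, 6.84 and 6.99 in LiPS-45 and 6.27, 6.20 and 6.06 in LiPS-47, without overlap. The difference was 0.75 (SE 0.111, adjusted p = 0.0400), or 1.68-fold. LiPS-50 averaged 6.30 ± 0.176, near LiPS-47, and LiPS-57 was lowest at 5.60 ± 0.208, so the line with competence other than LiPS-45 had the least. Of the 12 fits that left out 1 array, 4 kept the call for Mir382.

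A probe set reads a microRNA gene and does not separate the arms of its hairpin. Total RNA was amplified as whole transcripts, and the levels of mature microRNAs were not tested. Mature sequences are shown because the seed, bases 2 to 8 in capitals, decides which messenger RNAs a microRNA can pair with. They cover Mir382 and the microRNA genes next to it by p (Mir539, Mir300, Mir679, Mir487b and Mir329). The 3p arms of miR-381, miR-379 and miR-411 were added after their values were seen, for the likeness of their sequences. All are from RefSeq (GRCm38.p6), 5′ to 3′, and miR-382-5p lies at chr12:109733781-109733802 on the plus strand.
miR-382-5p: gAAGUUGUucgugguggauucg
miR-382-3p: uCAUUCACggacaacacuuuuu
miR-539-5p: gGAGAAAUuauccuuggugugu
miR-300-3p: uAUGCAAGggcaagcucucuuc
miR-381-3p: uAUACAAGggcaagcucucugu
miR-679-5p: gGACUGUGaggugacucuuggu
miR-487b-5p: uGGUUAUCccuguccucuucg
miR-329-3p: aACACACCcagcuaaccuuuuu
miR-379-3p: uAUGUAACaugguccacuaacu
miR-411-3p: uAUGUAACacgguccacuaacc
The seeds differ between most of these members. The exception is the pair miR-379-3p and miR-411-3p, which share AUGUAAC; their genes Mir379 and Mir411 differed between the lines by 0.44 (unadjusted p = 0.041) and 0.31 (unadjusted p = 0.017). The 3p arms of miR-300 and miR-381 are alike over most of their length but have the seeds AUGCAAG and AUACAAG.

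Mir300 had the largest upward difference of the 19938 genes. Its arrays read 6.30, 6.11 and 6.17 in LiPS-45 and 5.34, 4.74 and 5.35 in LiPS-47, a difference of 1.05 (SE 0.182), which did not pass (adjusted p = 0.0713). LiPS-47 replicate 2 was the lowest of the 6. Mir539 read 6.18, 6.40 and 6.30 in LiPS-45 and 5.50, 5.45 and 5.66 in LiPS-47, a difference of 0.76 (SE 0.127, adjusted p = 0.0647). For Mir679 the difference was 0.50 (adjusted p = 0.0819), for Mir487b 0.57 (adjusted p = 0.0819), for Mir329 0.43 (adjusted p = 0.0992) and for Mir381 0.53 (adjusted p = 0.332). In each of these the 3 LiPS-45 arrays lay above the 3 LiPS-47 arrays. For Mir300, Mir539, Mir679 and Mir487b such a separation was a condition of a rule that named them. Of the 30 measured members of the cluster, 16 lay apart upward and 0 downward, beside 6.57% and 6.99% of all probe sets.

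Over the cluster from Mir379 to Mir410, 30 of 38 listed microRNA genes were measured. Of these 1 rose and 0 fell, with a median difference of 0.20 against -0.0071 over all genes. At an unadjusted p under 0.05, 13 members were higher and 0 lower, beside 3.62% of all genes higher and 5.05% lower. Of the 30 members, 15 had a mean over all arrays below 5.21, the level under which the dimmest 40% of probe sets fall. The members are neighbours in the same domain and may vary together, so the 13 cannot be read as 13 separate results. The median level of the cluster was 5.43, 5.53 and 5.65 in the LiPS-45 arrays and 5.29, 5.25 and 5.29 in the LiPS-47 arrays, without overlap. It was 4.88 to 5.25 in LiPS-50 and 4.55 to 4.64 in LiPS-57. The 3 members with a lower mean in LiPS-45 were Mir409 (-0.11), Mir666 (-0.046) and Mir376b (-0.0089), which lie among the others.

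Upstream, near Meg3 and Rtl1, 10 further microRNA genes were measured, with a median difference of 0.083, 9 of 10 above 0 and 0 passing. Mir127, antisense to Rtl1, had a difference of 0.49 (unadjusted p = 0.00296) and Mir370 one of 0.35 (unadjusted p = 0.015), whereas Mir341 and Mir136 differed by 0.012 and 0.0034. Meg3 read 10.73, 10.75 and 10.60 in LiPS-45 and 10.47, 10.26 and 10.32 in LiPS-47, so its arrays did not overlap. The difference of 0.34 (SE 0.0786) had an adjusted p of 0.192. LiPS-57 had less Meg3 than either line, at 9.60 ± 0.0568, below LiPS-45 by 1.10 (adjusted p = 3.85e-05) and below LiPS-47 by 0.76 (adjusted p = 0.00186). Rian differed by 0.15 (adjusted p = 0.775), and its arrays overlapped.

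Of the 3 paternally expressed genes 0 passed. Dlk1, a transmembrane protein related to Notch ligands, read 8.78, 8.91 and 8.62 in LiPS-45 and 8.63, 8.79 and 8.36 in LiPS-47, a difference of 0.17 with overlapping arrays (adjusted p = 0.721). Rtl1, a retrotransposon-derived gene, differed by 0.0062 and Dio3, a thyroid hormone deiodinase, by -0.017. The signs of Rtl1 and Dio3 turned when single arrays were left out. The fibroblast and feeder list described below had a median of 0.15 higher in LiPS-45, and its part in the microRNA values was not tested. That list's median per array was 8.34 to 8.58 in LiPS-45 and 7.94 to 8.42 in LiPS-47. It was 8.25 to 8.42 in LiPS-57 and 8.86 to 9.07 in LiPS-50.

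**Figure D3:**
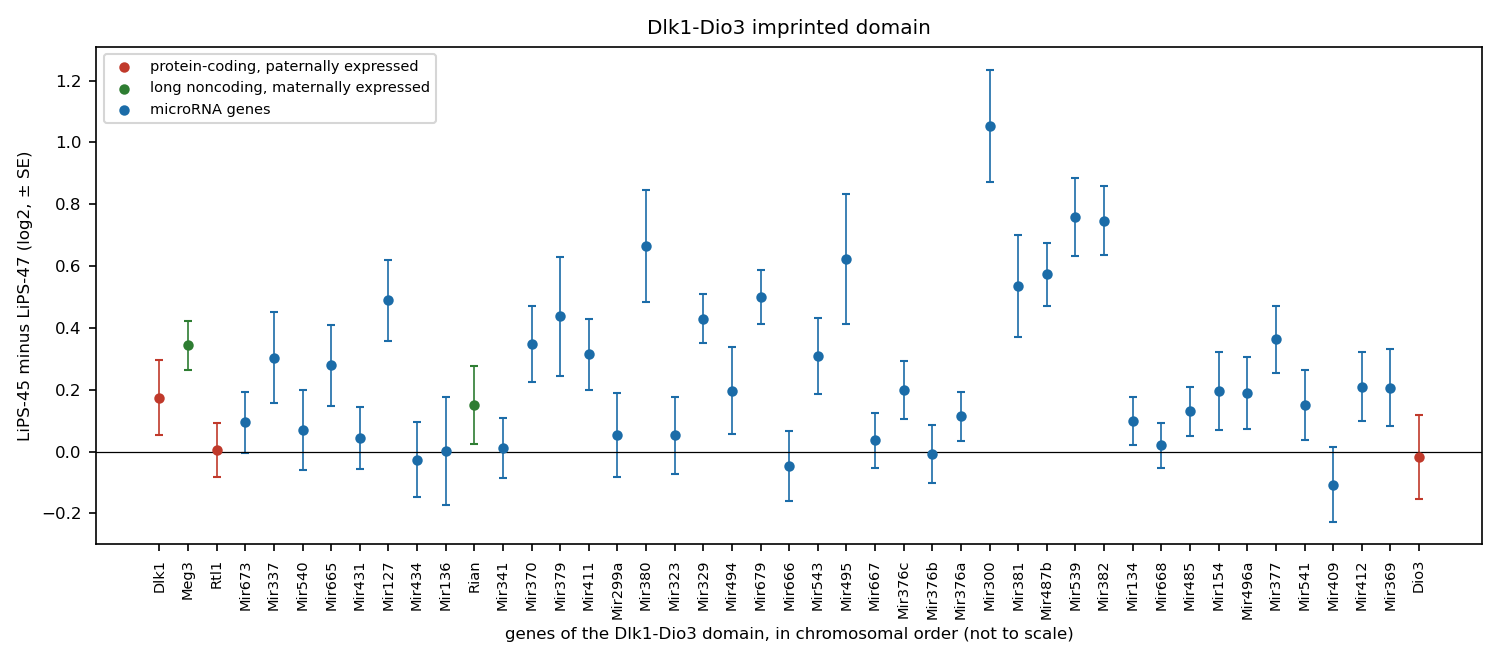
Difference between LiPS-45 and LiPS-47 (log2, with its SE) for 45 measured genes of the Dlk1-Dio3 domain, in their order along chromosome 12 and not to scale. The 5 microRNA genes from Mir300 to Mir382 lie at 0.53 to 1.05, whereas the paternally expressed Dlk1, Rtl1 and Dio3 lie at 0.17, 0.0062 and -0.017.

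Klf12, a Krüppel-like repressor of transcription, read 7.35, 7.42 and 7.39 in LiPS-45 and 6.64, 6.37 and 6.65 in LiPS-47. The difference was 0.83 (SE 0.104, adjusted p = 0.0112). LiPS-45 alone was high, with LiPS-57 at 6.44 ± 0.120 and LiPS-50 at 6.25 ± 0.191. Klf12 kept its call in 8 of the 12 fits without 1 array. The neighbouring Klf5, a factor of the naive network, differed by 0.031.

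Pop4, a protein subunit of RNase P and RNase MRP that process transfer and ribosomal RNA precursors, read 8.61, 8.74 and 8.83 in LiPS-45 and 8.12, 7.87 and 7.96 in LiPS-47. The difference was 0.75 (SE 0.0807, adjusted p = 0.00456). Here the lines paired across competence: LiPS-50 (8.67 ± 0.0224) lay with LiPS-45, and LiPS-57 (7.96 ± 0.0904) with LiPS-47. Mid1, an X-linked ubiquitin ligase bound to microtubules, whose gene reaches into the pseudoautosomal region in mouse, showed the same arrangement. It read 7.73, 7.56 and 7.59 in LiPS-45 and 6.84, 7.13 and 6.70 in LiPS-47 (difference 0.74, SE 0.109, adjusted p = 0.0400), with LiPS-50 at 7.63 ± 0.166 and LiPS-57 at 6.88 ± 0.0490. Mid1 kept its call in 3 of the 12 fits without 1 array and lost it with LiPS-50 left out (adjusted p = 0.0563). Pop4 kept its call in all 12. G530011O06Rik, close to Mid1 on the X chromosome, differed by 0.80 (adjusted p = 0.112), with 6.63 in LiPS-50 and 6.15 in LiPS-57.

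Atf7ip, a partner of the histone methyltransferase SETDB1, has 2 probe sets. One read 8.17, 8.07 and 8.13 in LiPS-45 and 7.50, 7.62 and 7.56 in LiPS-47, a difference of 0.56 (SE 0.0660, adjusted p = 0.00758), while the brighter one differed by 0.049. LiPS-57 lay in between at 7.80 ± 0.0992, and neither of its differences, 0.33 to LiPS-45 and 0.24 to LiPS-47, passed. Among 16 measured genes of DNA methylation, 0 passed and 13 had a higher mean in LiPS-45. Zfp57, a zinc finger protein that protects imprints, had a difference of 0.23 (unadjusted p = 0.00231), Uhrf2 one of 0.20 (unadjusted p = 0.00517) and Dnmt3l, the cofactor of the de novo methyltransferases, one of 0.16 (unadjusted p = 0.011). Dnmt1, Dnmt3a and Dnmt3b differed by -0.046, -0.067 and 0.032.

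Plet1, a surface protein of placental and epithelial progenitors, read 6.45, 6.33 and 6.17 in LiPS-45 and 7.14, 7.09 and 7.04 in LiPS-47. It was lower in LiPS-45 by a log2 difference of -0.78 (SE 0.0839, adjusted p = 0.00456), or 1.71-fold. LiPS-57 (6.57 ± 0.111) also lay below LiPS-47, by a difference of -0.52 (adjusted p = 0.0347), and LiPS-50 averaged 6.83 ± 0.0914. Around Plet1 on chromosome 9, 24 neighbouring genes were followed, 12 on each side, and 0 passed. At an unadjusted p under 0.05, 4 were lower and 0 higher in LiPS-45: Pts (-0.31), Sdhd (-0.27), Pih1d2 (-0.31) and 2310030G06Rik (-0.61). Over all genes, 5.05% were lower and 3.62% higher at that p. The median of the 24 neighbours of Plet1 was -0.016. Around Hspa8, also on chromosome 9, 4 of 24 neighbours were lower and 2 higher at that p.

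Cd59a, an inhibitor of the membrane attack complex of complement, read 6.13, 6.37 and 6.06 in LiPS-45 and 5.60, 5.23 and 5.24 in LiPS-47, a difference of 0.83 (SE 0.118, adjusted p = 0.0310). LiPS-45 alone was high. Its adjacent paralogue Cd59b, which has a similar sequence, differed by 0.19 (adjusted p = 0.787). Nefm, a neurofilament protein, read 5.35, 5.30 and 5.61 in LiPS-45 and 6.19, 6.36 and 6.31 in LiPS-47, a difference of -0.87 (SE 0.132, adjusted p = 0.0421). Its neighbour and partner in the filament, Nefl, was not lower (0.15), and of 14 measured neural genes, a list without Nefm, 0 passed. Cd59a kept its call in 4 and Nefm in 2 of the 12 fits without 1 array.

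On the Y chromosome, Eif2s3y, which encodes the gamma subunit of the translation initiation factor eIF2, read 7.24, 7.50 and 7.64 in LiPS-45 and 6.56, 6.40 and 6.41 in LiPS-47. The difference was 1.00 (SE 0.126, adjusted p = 0.0112), about 2-fold. LiPS-50 averaged 6.34 ± 0.149 and LiPS-57 5.77 ± 0.227. Leaving out 1 array kept the call for Eif2s3y in 9 of 12 fits. No other Y-linked gene passed. Uty, a histone demethylase homologue and the brightest of them, was at 7.89, 7.67 and 8.0 in LiPS-45 and 7.94, 7.66 and 7.70 in LiPS-47, a difference of 0.093, while Kdm5d had a difference of -0.26 (unadjusted p = 0.032). Of 8 measured Y-linked genes 1 rose and 0 fell, and the median was -0.063. Xist, the RNA that coats an inactive X chromosome, had a difference of 0.42 (adjusted p = 0.395), at 6.22 in LiPS-47 and 6.64 in LiPS-45 against 8.31 in LiPS-50.

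No chromosome as a whole stood apart. Autosomal medians of the difference lay between -0.020 and 0.013, and the medians of the X and Y chromosomes were 0.0063 and 0.0057. Elsewhere on the X chromosome, Mir363, a microRNA gene of a cluster active in pluripotent cells, read 7.58, 7.10 and 8.07 in LiPS-45 and 6.98, 6.60 and 6.53 in LiPS-47. Its difference of 0.88 (SE 0.254) did not pass (adjusted p = 0.308), and LiPS-45 replicate 3 was the highest array. The same seed is carried by Mir92-2, whose gene lies beside it and differed by 0.10; both are shown for that reason, from RefSeq (GRCm38.p6), with the seed in capitals.
miR-363-3p: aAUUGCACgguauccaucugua
miR-92a-3p: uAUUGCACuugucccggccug
Of 11 measured genes of the microRNA clusters active in pluripotent cells, Mir363 included, 0 passed, and the median was -0.047.

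Probe sets without a single gene made up the other 5 calls. Probe set 10608711, for which the annotation lists no gene, had the smallest p of all. It read 12.09, 12.04 and 12.03 in LiPS-45 and 10.81, 10.78 and 10.77 in LiPS-47, a difference of 1.27 (SE 0.0540, adjusted p = 5.66e-07), or 2.41-fold. LiPS-50 (11.93 ± 0.0542) lay with LiPS-45 and LiPS-57 (10.53 ± 0.0276) with LiPS-47. It kept the call in each of the 12 fits without 1 array. Probe sets 10375121 and 10375123, also without a gene, differed by 0.87 each (adjusted p = 0.0400 and 0.0310) and were high in LiPS-45 alone; they kept the call in 4 and 6 of those 12 fits. Probe set 10608724, likewise unnamed, differed by -0.54 (adjusted p = 0.00552), and LiPS-57 was below LiPS-47 there as well (-0.37, adjusted p = 0.0353). Probe set 10564211 lists several genes and names none here. It differed by -0.33 (adjusted p = 0.0421) and kept the call in 0 of the 12 fits without 1 array, with LiPS-50 on the side of LiPS-45 and LiPS-57 on that of LiPS-47.

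**Figure D4:**
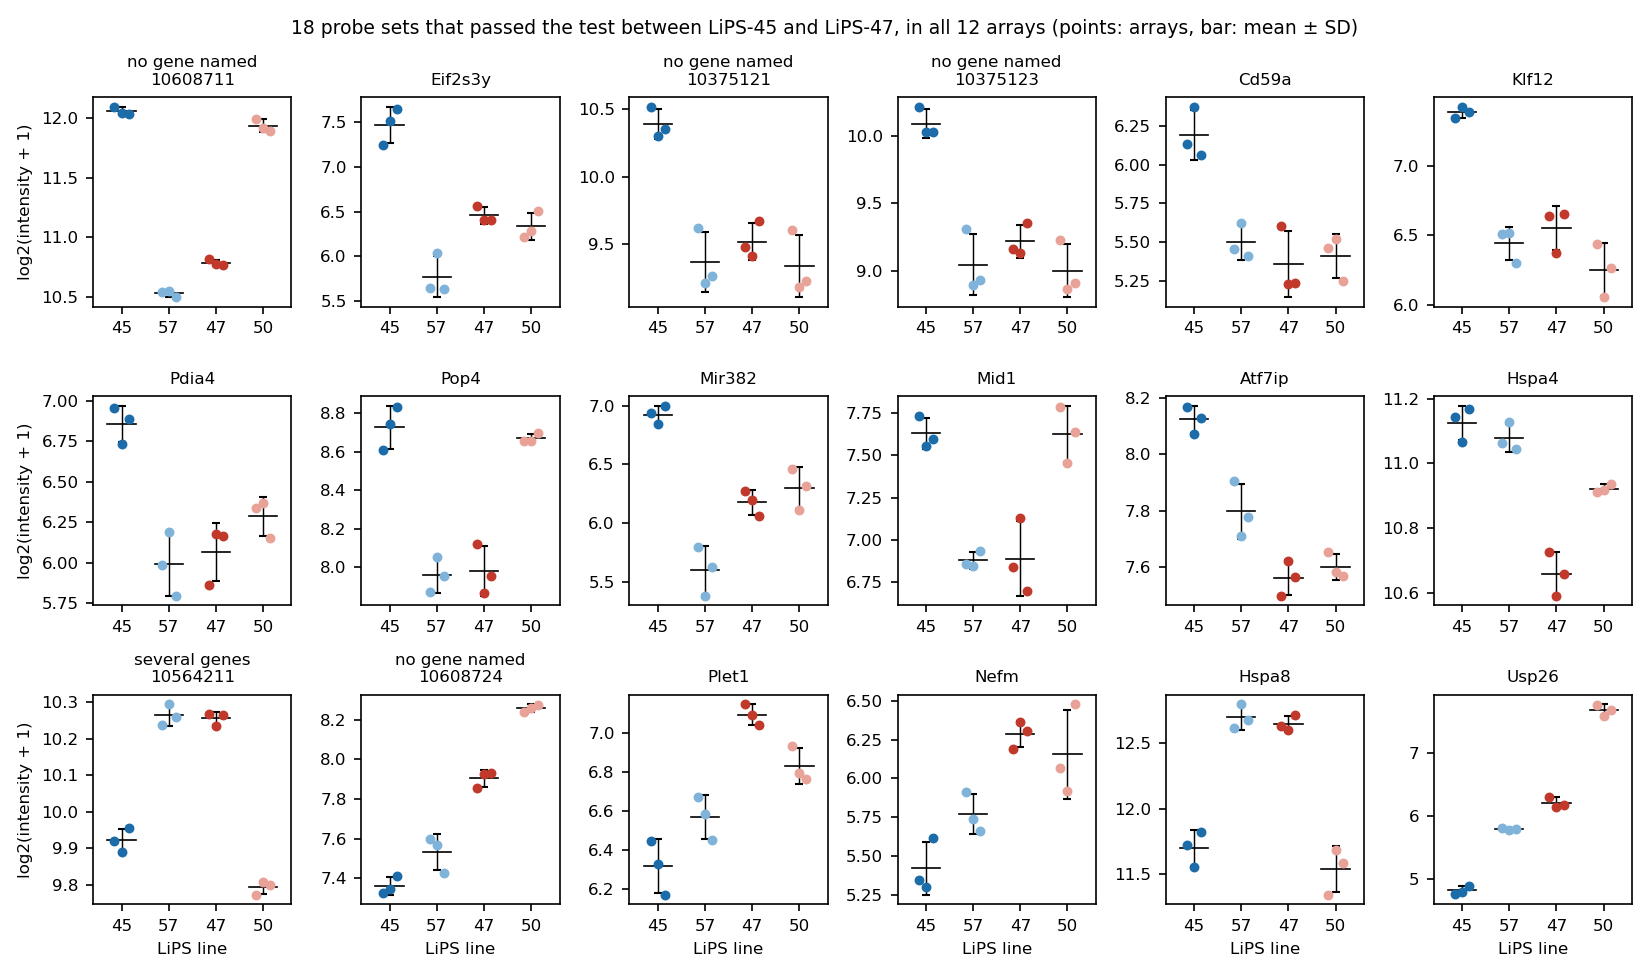
The 18 probe sets that passed between LiPS-45 and LiPS-47, in all 12 arrays, as log2(intensity + 1); points are arrays and bars the mean ± SD of 3, with lines with competence (45, 57) in blue and lines without (47, 50) in red. Usp26, Plet1, Nefm and probe set 10608724 have the means of both lines with competence below both without, and Atf7ip, Cd59a and Hspa4 above. For Atf7ip, Cd59a and Nefm the difference between LiPS-57 and LiPS-47 did not pass with limma (adjusted p = 0.416, 0.893 and 0.329). Pop4, Mid1, Hspa8 and probe sets 10608711 and 10564211 place LiPS-50 beside LiPS-45. In Klf12, Eif2s3y, Mir382, Pdia4 and probe sets 10375121 and 10375123, LiPS-45 had the highest mean and LiPS-57 a lower mean than LiPS-47. The 18 were chosen for a gap between LiPS-45 and LiPS-47, so the order of these lines was fixed by the choice.

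Genes just past the threshold, with arrays apart but an adjusted p above 0.05, were closest for Cnpy1 upward (0.39, adjusted p = 0.0506) and Egln3 downward (-0.35, adjusted p = 0.0570). Egln3 is a prolyl hydroxylase that acts in the oxygen response; it read 7.24, 7.27 and 7.26 in LiPS-45 and 7.62, 7.59 and 7.59 in LiPS-47. Cdca3, a regulator of entry into mitosis, had a difference of 0.35 (adjusted p = 0.0511) and Bcat2, the mitochondrial branched-chain aminotransferase, one of 0.40 (adjusted p = 0.0541). Zfp943, a zinc finger gene, differed by 0.34 (adjusted p = 0.0692), and there LiPS-57 equalled LiPS-45 with a difference of 0.00063. Kcnk6, a potassium channel, differed by -0.47 (adjusted p = 0.0648) and Crmp1, a cytoskeletal protein of neurites, by -0.32 (adjusted p = 0.0907).

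Differences in the pluripotency network were small. Of 16 core pluripotency and reprogramming factors 0 passed, and the median difference was 0.017. Pou5f1 read 11.79, 11.70 and 11.74 in LiPS-45 and 11.66, 11.68 and 11.73 in LiPS-47, a difference of 0.055 (SE 0.0529). Sox2 differed by 0.049, Myc by -0.030 and Klf4 by 0.12, each with overlapping arrays. Nanog was 10.59, 10.58 and 10.63 in LiPS-45 and 10.39, 10.53 and 10.52 in LiPS-47, arrays that did not overlap but whose difference of 0.12 had an adjusted p of 0.584. Lin28b, an RNA-binding repressor of let-7 microRNAs, had a difference of 0.17 (unadjusted p = 0.025) and Gdf3, a TGF-beta family ligand, one of 0.13 (unadjusted p = 0.0496). In the naive network 25 genes were measured and 0 passed. Its median was 0.037, with Nr0b1 at 0.23 (unadjusted p = 0.00598), Esrrb at 0.051 and Zfp42 at 0.019. Of 20 primed epiblast genes 0 passed, with a median of 0.012; Foxd3 had the smallest p (0.30, unadjusted p = 0.0023).

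Genes of simple epithelia mostly had a lower mean in LiPS-45, without passing. Krt18 and Krt8, the keratin pair of simple epithelia and trophectoderm, were at 9.45, 9.64 and 9.55 (Krt18) and 10.75, 10.75 and 10.70 (Krt8) in LiPS-45. In LiPS-47 Krt18 read 10.10, 9.97 and 9.99 and Krt8 averaged 11.12 ± 0.189, and neither gene's arrays overlapped. Krt18 had a difference of -0.48 (SE 0.0814, adjusted p = 0.0692) and Krt8 one of -0.39 (adjusted p = 0.332). LiPS-57 was lower in Krt18 than LiPS-47 by a difference of -0.73 (adjusted p = 0.00311). LiPS-47 was also above LiPS-50, the other line without competence, by 0.60 in Krt18 (adjusted p = 0.000360) and by 0.77 in Krt8 (adjusted p = 0.000814), so LiPS-47 had the highest mean of the 4 lines in both genes. Of 23 measured keratin and junction genes 0 passed and 20 had a lower mean in LiPS-45, with a median of -0.10. Over all genes, 5.05% were lower and 3.62% higher at an unadjusted p under 0.05. In this list 9 were lower and 0 higher at that p. They include the tight junction gene Cldn4 (-0.32), the desmosomal gene Dsp (-0.30) and Krt19 (-0.39), whereas Epcam and Cdh1, which epithelia and pluripotent cells share, differed by -0.10 and -0.066. The list's median level was 8.31, 8.32 and 8.40 in the LiPS-45 arrays and 8.44, 8.36 and 8.42 in the LiPS-47 arrays, which overlap. Among 18 trophectoderm and placental genes, a list without Plet1, 0 passed and the median was -0.053. The 4 that were lower at an unadjusted p under 0.05, beside 5.05% of all genes, were the keratins Krt18, Krt8, Krt19 and Krt7. Cdx2, a defining factor of that lineage, differed by 0.0011.

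Fibroblast and feeder cell genes mostly had a higher mean in LiPS-45, also without passing. Of 38 measured, 0 passed, and 36 had a higher mean in LiPS-45, with a median of 0.15. Only S100a4 (0.32) and Cav1 (0.25) had an unadjusted p under 0.05, and in none of the 38 were the arrays of the lines apart. The list's median level was 8.35, 8.58 and 8.34 in the LiPS-45 arrays and 8.30, 8.42 and 7.94 in the LiPS-47 arrays, so LiPS-47 replicate 3 was the lowest and LiPS-45 replicate 2 the highest. Without LiPS-47 replicate 3 the median difference of the list was 0.037, and without LiPS-45 replicate 2 it was 0.063. The keratin and junction median was -0.15 without LiPS-47 replicate 3, and that of the microRNA cluster 0.22. The part of the fibroblast and feeder cell genes in the keratin and microRNA values was not tested.

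**Figure D5:**
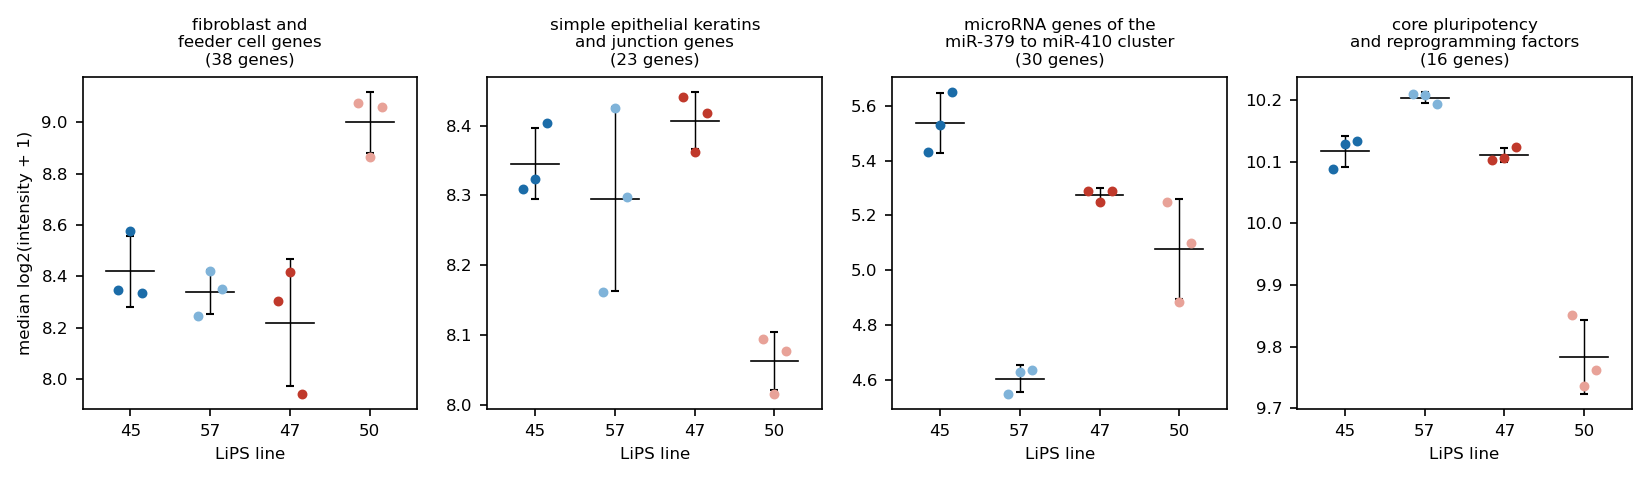
Median log2(intensity + 1) over the genes of 4 lists in each of the 12 arrays, with points for arrays and bars for the mean ± SD of 3 per line. The microRNA cluster is higher in every LiPS-45 array (5.43 to 5.65) than in any LiPS-47 array (5.25 to 5.29), the fibroblast and keratin lists overlap between both lines, and the core pluripotency list lies between 10.09 and 10.13 in both.

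The remaining lists gave 0 calls each. Of 49 other imprinted genes, 5 were higher and 5 lower at an unadjusted p under 0.05, with a median of 0.018. Over all genes, 3.62% were higher and 5.05% lower at that p. Plagl1 (0.35) and Zim1 (0.31) were on the higher side and Nnat (-0.30) on the lower. Interferon and antigen presentation genes had a median of -0.069 over 26 members, with Bst2 at -0.28 (adjusted p = 0.112), Psmb8 at -0.27 and Irf1 at -0.18. Among 21 endoderm genes, Dab2 had a difference of 0.35 (unadjusted p = 0.0071) and Sox17 one of -0.22 (unadjusted p = 0.023), with a median of 0.032. Germ line genes had a median of 0.0012 over 27 members, with Sycp3 of the meiotic chromosome axis at 0.28 (unadjusted p = 0.0023). Genes of glycolysis and hypoxia had a median of -0.038 over 27 members. Of these 18 had a lower mean in LiPS-45, 3 were lower and 0 higher at an unadjusted p under 0.05, and in 7 the LiPS-45 arrays all lay below the LiPS-47 arrays, beside 6.99% of all probe sets. Polycomb genes had a median of 0.026 over 20 members. Of these 3 were higher and 0 lower at an unadjusted p under 0.05, beside 3.62% of all genes higher and 5.05% lower. Cell cycle genes (median -0.010, 32 members) and ribosomal protein genes (median 0.026, 22 members) had 0 members at that p in either direction.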

How the data were processed

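The deposited table holds probe set intensities on a linear scale for 12 arrays of total RNA (amplified as whole transcripts and labelled with biotin, per the labels). GCOS 1.4 is named per the submitters' processing notes; how background, summarization and scaling were handled is not given in the sources used here, so scaling between arrays could not be checked beyond its effect below. Values were turned into log2(intensity + 1), which understates changes of dim genes. Of 35556 probe sets, 6617 numbered below the annotated range and without a gene were treated as controls and left out. Genes follow the array annotation, with symbols updated through RefSeq (GRCm38.p6, 19856 of 19938 genes matched) and the probe set of highest mean standing for a gene. Mature sequences were found for 40 of 40 microRNA genes of the Dlk1-Dio3 domain.

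Lines were compared with limma 3.58.1 under R 4.3.3 (lmFit, then eBayes, over 4 line means and 12 arrays, 8 residual degrees of freedom, two-sided, Benjamini-Hochberg over 28939 probe sets, threshold 0.05). The procedure was tested on simulated data. No array shared more than 0.746% of values with another. Lists were described by counts and medians without a test.

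The comparison, the gene lists and the named genes were chosen with earlier results of these data known. Named are the called genes, up to 10 genes each way by the smallest p among those not called with arrays apart, 5 each way by size, a set of pluripotency, imprinted and sex-linked genes, and up to 3 per list by the smallest p; the text names part of these. Genes beside them (neighbours of called genes, further list members and paralogues) were chosen after their values were seen. Same-numbered arrays of LiPS-45 and LiPS-47 did not deviate together (correlations -0.12, 0.084 and 0.033), so numbers were not treated as pairs. Alternatives were other scalings, pseudocounts and filters, other samples in the fit, other variance models and leaving out each array.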

Additional observations from a re-analysis of the deposited data

How the results depend on the processing

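Of the 18 probe sets, 17 were among the 19 that passed under median centring, 15 among 21 under quantile normalization, 18 among 18 with no pseudocount, 10 among 14 with the control block included, 13 among 14 with LiPS-50 left out and 18 among 21 with array weights. It was 49 with a pseudocount of 16, 50 without the dimmest 40% of probe sets, and 84 with an intensity trend and robust prior, each of which kept all 18. It was 10 with 1 probe set per gene, a setting added after the values were seen, and 3 with LiPS-45 and LiPS-47 fitted alone (probe set 10608711, Usp26 and Hspa8). Leaving out 1 array in turn gave 6 to 44, and 11 without LiPS-57 replicate 3. With the replicate block 18 passed, 14 of them shared; same-numbered arrays share only a number, and Nefm, Pdia4, Mid1 and probe set 10564211 lost the call.

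No called difference changed sign in any of these fits. Among the named genes followed through these fits, signs turned only in genes near 0 and in other probe sets of a gene: Zfp42 (-0.0087) and Dio3 (0.012) under quantile normalization, and, leaving out single arrays, Zfp42 (-0.076 to 0.067), Dio3 (-0.13 to 0.066), Rtl1 (-0.079 to 0.075), Sox2 (-0.018 to 0.093) and Myc (-0.086 to 0.055). Other probe sets gave 0.018 for Hspa8 and -0.0072 for Pdia4. The median of the core pluripotency list was -0.0064 under quantile normalization. The causes were not tested.

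Krt18, Egln3, Cnpy1, Mir539, Mir300, Mir679 and Mir487b passed with the pseudocount of 16, the filter and the intensity trend. So did Cdca3, Bcat2, Kcnk6, Gm11517, Prex2, Pianp, Crmp1 and Bst2. Meg3, Cldn4 and Sdhd passed with the intensity trend and robust prior (limma, adjusted p = 0.0219, 0.035 and 0.0454), but not with the pseudocount of 16 or the filter. Probe set 10564211 passed in 0 of the 12 fits without 1 array. Dim probe sets have little signal over background, which limits their differences.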
